A study of Mus musculus with 8 samples.

Results

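The sham-operated kidney is the unobstructed reference tissue of a mouse study of unilateral ureteral obstruction, and its miRNAs were measured on 4 of the 8 one-colour arrays of the series. These 4 arrays, titled Sham1, Sham2, Sham3 and Sham8, were chosen by their titles and appear below as Sham 1, Sham 2, Sham 3 and Sham 8. Each held Cy3-labelled total RNA of kidney tissue from male C57BL/6 mice aged 8 weeks, 7 days after sham surgery. The labels name no allele, drug or other agent, and they do not say in words that each array came from a different mouse, so the spread between arrays may be partly technical. With a single group there was no comparison between conditions and no test, and all values below are descriptions.

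miRNAs are short RNAs cut from hairpin precursors. Each hairpin can give a product from its 5' side (5p) and one from its 3' side (3p), and in most hairpins one of them is kept and loaded into an Argonaute protein while the other is degraded. The loaded miRNA finds its target mRNAs mainly through its seed, bases 2 to 8, so miRNAs with the same seed form a family with overlapping targets. In the kidney, the miR-192 and miR-194 pair and the miR-30 family are known from tubule epithelium, the miR-200 family marks epithelia and restrains the mesenchymal factors Zeb1 and Zeb2, and miR-29 targets collagen mRNAs.

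The mature sequences of the miRNAs that carried most of the signal are shown here, from RefSeq (build GRCm38.p6), because the seed decides the family sums given later. Capitals mark the seed. Among the 431 miRNAs detected on all 4 arrays, 368 matched a mature sequence in that table. The first 4 are the brightest entries of the array.
miR-6366: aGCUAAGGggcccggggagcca
miR-3963: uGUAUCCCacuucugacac
miR-5100: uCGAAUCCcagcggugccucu
miR-3968: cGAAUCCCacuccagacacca
The next are the 9 brightest members of the let-7 family, the brightest group of miRNAs in many differentiated tissues.
let-7f-5p: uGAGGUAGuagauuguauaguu
let-7a-5p: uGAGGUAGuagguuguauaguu
let-7c-5p: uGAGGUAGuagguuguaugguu
let-7b-5p: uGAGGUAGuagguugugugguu
let-7g-5p: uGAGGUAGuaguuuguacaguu
let-7d-5p: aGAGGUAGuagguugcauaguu
let-7i-5p: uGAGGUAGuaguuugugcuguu
let-7e-5p: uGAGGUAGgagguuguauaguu
miR-98-5p: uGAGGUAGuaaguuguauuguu
The miR-30, miR-29 and miR-26 families followed in summed signal.
miR-30c-5p: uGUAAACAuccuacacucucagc
miR-30a-5p: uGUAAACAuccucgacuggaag
miR-30e-5p: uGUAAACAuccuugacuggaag
miR-29a-3p: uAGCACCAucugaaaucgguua
miR-29b-3p: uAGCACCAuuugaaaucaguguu
miR-29c-3p: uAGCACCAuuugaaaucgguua
miR-26a-5p: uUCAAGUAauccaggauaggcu
miR-26b-5p: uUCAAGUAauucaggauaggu
The epithelial miR-200 family splits into groups whose seeds differ by a single letter, shown by the next 5 lines, and the tubule pair closes the set.
miR-200b-3p: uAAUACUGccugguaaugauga
miR-429-3p: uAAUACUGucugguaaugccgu
miR-200c-3p: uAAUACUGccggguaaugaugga
miR-200a-3p: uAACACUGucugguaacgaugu
miR-141-3p: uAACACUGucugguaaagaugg
miR-192-5p: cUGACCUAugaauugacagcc
miR-194-5p: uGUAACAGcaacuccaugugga

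The array carried 56430 spots of 4415 probes for 1881 mouse miRNAs. By the scanner software, 472 to 488 of them were detected on a given array. On all 4 arrays 431 were detected (22.9%), 92 more were detected on 1 to 3 arrays (27, 25 and 40 miRNAs on 1, 2 and 3 arrays), and 1358 were detected on none. No spot was saturated. The level of a miRNA is its scaled intensity: the mean background-subtracted brightness of the spots of its brightest probe, after each array was scaled to a common 75th percentile. Probes bind their targets with different strength and the dye is joined to the 3' end with different yield, so the order of brightness is not an order of molecule numbers. "Brighter" is therefore written throughout, and an order of miRNAs is the order of their probes.

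Brightness was concentrated in few miRNAs. The 431 levels ran from 9.33 to 198048, a range of 14.37 on the log2 scale, with a median of 49.0. Levels under the lowest signal well above background, 11.6 to 14.2 per array, have no order. Above 1000 lay 53 miRNAs, between 100 and 1000 lay 92, between 30 and 100 lay 129, and below 30 lay 157. The 10 brightest held 71.5% ± 1.16 (SD, n = 4) of the summed signal of the 431, and the 50 brightest held 92.4% ± 0.367.

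**Figure D1:**
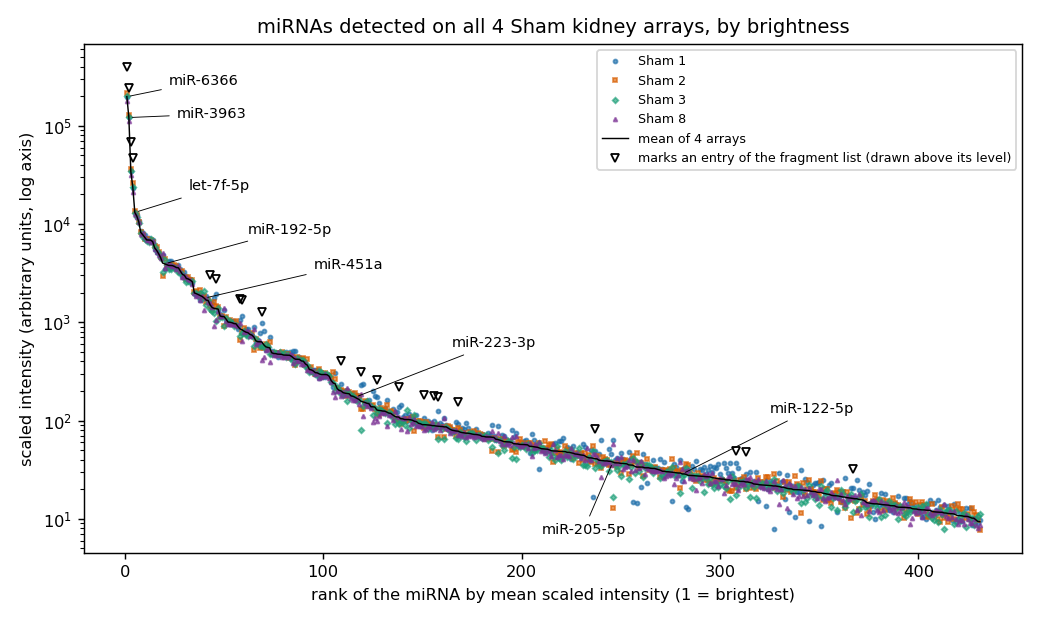
Scaled intensity (log axis) of the 431 miRNAs detected on all 4 Sham arrays against their rank, with a point for each array, a line for the mean and open triangles above entries of the fragment list. The first 4 ranks stand far above the rest (23606 to 198048), and the points of the 4 arrays spread more below the median level of 49.0 than above it.

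The 4 brightest entries were not classical kidney miRNAs. miR-6366 measured 197177, 214073, 200250 and 180691 on Sham 1, 2, 3 and 8, with a mean of 198048 ± 13707 (SD, n = 4). miR-3963 measured 121682, 129596, 122594 and 111912, with a mean of 121446 ± 7273. Both were highest on Sham 2 and lowest on Sham 8. miR-5100 followed at 34237 ± 1767 and miR-3968 at 23606 ± 2051. Together these 4 entries held 61.8% ± 1.54 of the summed signal. All 4 are on a hand-written list of 50 doubtful entries, whose sequences may be pieces of longer non-coding RNAs. Of this fragment list 30 entries were on the array and 22 were detected on all 4 arrays.

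The sequences of these entries show how they are measured. miR-6366 was read by a probe of 11 bases with 81.8% GC, the DNA tggctccccgg, which pairs with bases 12 to 22 of the mature sequence and does not reach its seed. miR-3963, miR-5100 and miR-3968 share the run AUCCCA, which starts at base 4, 5 and 4 respectively. miR-5100 and miR-3968 share the longer run CGAAUCCCA. The brightest probe covered bases 4 to 19 of miR-3963, 8 to 21 of miR-5100 and 7 to 21 of miR-3968. Those of miR-5100 and miR-3968 therefore read only the end of these runs. None of these probes is within 1 mismatch of another RefSeq mature sequence. The 22 listed entries detected on all 4 arrays had a median probe length of 13.5 bases and a median probe GC content of 67.9%, against 17.0 bases and 53.3% for the other 409 detected miRNAs. They held 62.9% ± 1.45 of the summed signal. Because so few entries set the denominator, shares below are given within the summed signal of the other 409 detected miRNAs unless stated otherwise. Within these, the 10 brightest held 38.1% ± 0.153 and the 50 brightest held 83.8% ± 0.271.

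Behind these entries came the let-7 family. let-7f-5p measured 13304, 13633, 12849 and 12743 on Sham 1, 2, 3 and 8, a mean of 13132 ± 413. let-7a-5p measured 12281, 12375, 11792 and 11733, a mean of 12045 ± 330. let-7c-5p measured 10842, 10606, 10168 and 10498, a mean of 10528 ± 280. This order belongs to the brightest probes. The dimmer probe of each gave 5258 for let-7f-5p, 6336 for let-7a-5p and 5318 for let-7c-5p. let-7b-5p (6624 ± 192), let-7g-5p (5722 ± 180) and let-7d-5p (3604 ± 90.8) formed the middle of the family. let-7i-5p (1829 ± 82.3), let-7e-5p (1159 ± 32.4), miR-98-5p (294 ± 8.34) and let-7k (17.0 ± 1.18) were dimmer. Detected members thus differed by 772-fold within a single seed.

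The seed GAGGUAG of let-7 held 24.3% ± 0.289 of the signal of the 409 miRNAs, with 10 of the 11 array entries of that seed detected. On the 4 arrays the share was 24.0%, 24.6%, 24.4% and 24.2% in the order Sham 1, 2, 3 and 8. Over all 431 miRNAs the same sum was 9.02% ± 0.272. The members are hard to tell apart by hybridization: the brightest let-7a-5p probe of 20 bases differs by at most 1 mismatch from let-7c-5p, let-7d-5p, let-7e-5p and let-7f-5p. Among the 368 detected miRNAs with a sequence, 59 had a brightest probe within 1 mismatch of another RefSeq mature sequence, and 7 of those probes matched another one exactly. These counts are lower bounds, because only 1608 of the 1881 array miRNAs have a RefSeq mature sequence.

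**Figure D2:**
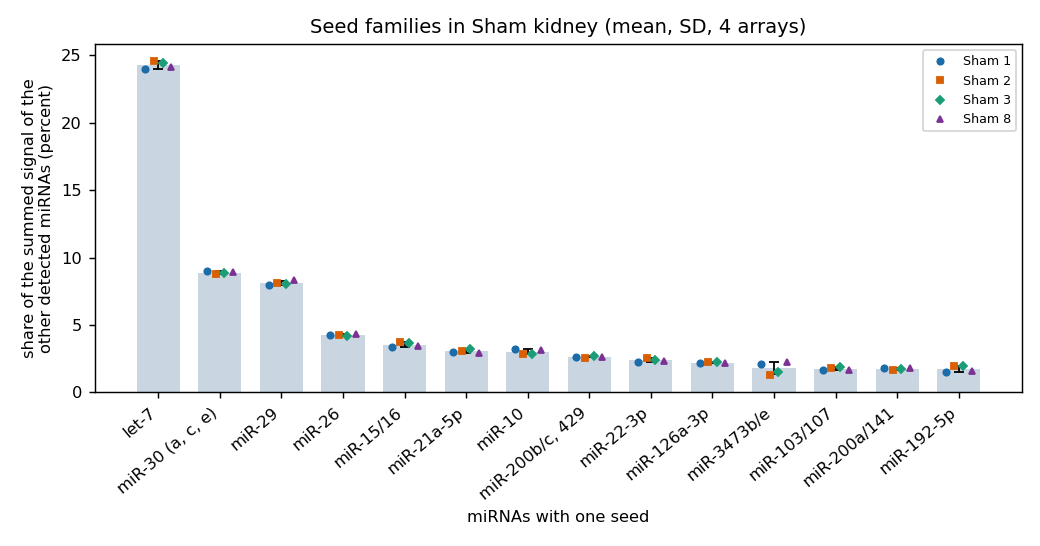
Share of the summed signal of the 409 detected miRNAs outside the fragment list (percent) for the 14 largest groups with the same seed, as mean bars with SD and a point for each Sham array. The let-7 bar (24.3%) is followed by miR-30 (8.88%) and miR-29 (8.12%), and the miR-3473b and miR-3473e group shows the widest gap between arrays.

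The miR-30 family, named in the kidney for tubule cells and podocytes, was the next largest. miR-30c-5p measured 8220 ± 271, miR-30a-5p 7335 ± 349 and miR-30e-5p 4552 ± 95.8, and these seed mates held 8.88% ± 0.0844. With miR-30b-5p (3788 ± 337) and miR-30d-5p (784 ± 56.1), which belong to the family by name, the share was 10.9% ± 0.212. The fixed family list has 6 members, and the remaining one, miR-30f, was detected on no array. The lowest and the highest detected member differed by 10.48-fold. The order of miR-30c-5p and miR-30a-5p belongs to the brightest probes: the dimmest probes gave 2718 for miR-30c-5p and 2863 for miR-30a-5p. The brightest miR-30a-5p and miR-30e-5p probes are each within 1 mismatch of the other miRNA, so these levels may include one another.

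The miR-29 family was more even than the let-7 and miR-30 families. miR-29a-3p measured 8096, 7688, 7343 and 8032 on Sham 1, 2, 3 and 8, a mean of 7789 ± 348. miR-29b-3p measured 6897, 7022, 6785 and 6872, a mean of 6894 ± 97.8. miR-29c-3p measured 3674, 3803, 3602 and 3720, a mean of 3700 ± 84.4. All 3 members stood among the 25 brightest miRNAs, within 2.11-fold of each other, and held 8.12% ± 0.154. The dimmer probes gave another order: 3572 for miR-29a-3p, 3375 for miR-29c-3p and 1716 for miR-29b-3p. The brightest miR-29a-3p and miR-29c-3p probes are each within 1 mismatch of the other miRNA, so these levels may include one another. miR-26a-5p (6876 ± 243) and miR-26b-5p (2758 ± 84.7), whose hairpins lie within the spans of the phosphatase genes Ctdspl, Ctdsp2 and Ctdsp1, held 4.26% ± 0.0673.

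Smaller families and single miRNAs filled the next ranks. The seed AGCAGCA of miR-15 and miR-16, known for restraint of the cell cycle, held 3.54% ± 0.211 with 6 of 10 entries detected, led by miR-16-5p (3076 ± 202) and miR-15a-5p (1957 ± 120). The dimmer probes reversed this order, with 1251 for miR-16-5p and 1804 for miR-15a-5p. miR-21a-5p, a miRNA within the span of Vmp1 that is known for its rise in injured and fibrotic tissue, measured 6926, 6937, 7038 and 6553, a mean of 6863 ± 213, and ranked 13 in these sham kidneys. miR-10a-5p (3796 ± 365) and miR-10b-5p (3007 ± 199), which lie within Hox gene spans, held 3.00% ± 0.199. miR-22-3p measured 5397 ± 297. miR-107-3p (2585 ± 122) and miR-103-3p (1363 ± 63.4), from introns of pantothenate kinase genes, held 1.75% ± 0.0969. The brightest miR-107-3p and miR-103-3p probes are each within 1 mismatch of the other miRNA, as are those of miR-10a-5p and miR-10b-5p. Levels within each pair may therefore include one another.

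The rest of the detected miRNAs were mostly alone in their family. The 368 detected miRNAs with a sequence carried 309 different seeds, and 33 seeds had 2 or more detected members, 92 miRNAs in all. The remaining large families followed the same uneven pattern. In the miR-125 family, miR-125b-5p (2792 ± 178) and miR-125a-5p (490 ± 20.2) were detected, and miR-351-5p was detected on no array. In the miR-378 family, linked to energy metabolism, all 4 members were detected: miR-378b (1005 ± 24.8), miR-378d (990 ± 30.0), miR-378a-3p (754 ± 14.3) and miR-378c (125 ± 6.63). Their dimmer probes gave another order: 551 for miR-378d, 510 for miR-378a-3p, 248 for miR-378b and 24.3 for miR-378c. The brightest miR-378b and miR-378c probes are each within 1 mismatch of the other miRNA. miR-378a-3p has no RefSeq sequence and was not compared, so these levels may include one another. In the miR-148 family, miR-152-3p (319 ± 8.85) was brighter than miR-148b-3p (119 ± 4.37) and miR-148a-3p (86.2 ± 23.1).

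Marker miRNAs, known for certain cell types but not exclusive to them, were set beside the kidney label. The lists were chosen with earlier results of these data known and no other tissue was measured, so their counts describe the arrays and do not test the label. In whole tissue, more cells of a type and more RNA per cell cannot be told apart. Of 13 miRNAs listed for kidney tubule epithelium, 12 were detected on all 4 arrays (92.3%, against 22.9% of all 1881 miRNAs), and they held 13.6% ± 0.0702 of the signal. miR-30c-5p and miR-30a-5p were its brightest members. miR-192-5p measured 3474, 4366, 4306 and 3589 on Sham 1, 2, 3 and 8, a mean of 3934 ± 467. Its cluster partner miR-194-5p measured 1679, 2108, 1984 and 1694, a mean of 1866 ± 214. Both were higher on Sham 2 and Sham 3 than on Sham 1 and Sham 8, with no overlap. miR-193a-3p (1143 ± 12.7), miR-196a-5p (563 ± 45.0), miR-204-5p (93.8 ± 4.00), miR-874-3p (72.2 ± 4.07) and miR-190a-5p (39.0 ± 2.45) completed the detected set with miR-10a-5p, miR-10b-5p and miR-30d-5p. miR-215-5p, whose seed is that of miR-192-5p, was detected on no array (0.46 ± 0.283).

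The miR-200 family was detected in full, 5 of 5 members with 4.37% ± 0.0962 of the signal. miR-200b-3p measured 3934, 3815, 3854 and 3892, a mean of 3874 ± 51.0, and was one of the steadiest miRNAs of the data. miR-200a-3p (3308 ± 137) and miR-429-3p (1662 ± 47.2) come from the same transcript. The second cluster of the family was dimmer and less even: miR-141-3p measured 774, 546, 573 and 642, and miR-200c-3p measured 515, 364, 375 and 428. Both members of the second cluster were highest on Sham 1 and next highest on Sham 8. Their log2 SDs were 0.224 and 0.228, against 0.0190 to 0.0591 in the first cluster.

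Vascular, stromal and blood-cell markers were also detected, from the brightness of the tubule markers down to the dimmest levels. miR-126a-3p, the endothelial miRNA of the Egfl7 gene, measured 4992 ± 150 and was the 17th brightest entry. Its other arm miR-126a-5p measured 255 ± 10.6, and the 2 listed arms of miR-126b were detected on no array. Of 5 smooth muscle and mesenchyme entries, miR-143-3p (794 ± 47.4), miR-145a-5p (192 ± 7.72) and miR-143-5p (12.4 ± 0.855) were detected. Of 5 fibroblast entries on the array, 4 were detected: miR-199a-3p (906 ± 37.3), miR-199b-5p (328 ± 18.3), miR-199a-5p (294 ± 13.2) and miR-214-3p (78.8 ± 1.31). The brightest miR-199a-3p probe matches miR-199b-3p exactly, so these products cannot be told apart here.

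Markers of red cells were detected and varied between arrays. miR-451a, the red-cell miRNA whose hairpin is cut by Argonaute 2 in place of Dicer, measured 1763, 1839, 2105 and 1335 on Sham 1, 2, 3 and 8, a mean of 1761 ± 319. miR-144-3p, from the same transcript, measured 99.04, 103, 129 and 78.8. miR-486a-5p measured 16.9, 16.7, 17.9 and 11.0. All 3 were highest on Sham 3 and lowest on Sham 8. Of 8 leukocyte markers 7 were detected, led by miR-142a-3p (366 ± 41.9), miR-146a-5p (241 ± 50.01), miR-223-3p (172 ± 12.1) and miR-342-3p (89.6 ± 3.65). miR-142a-3p and miR-146a-5p were both highest on Sham 2, where they reached 424 and 309. The leukocyte list held 0.453% ± 0.0504 of the signal and the erythroid list 0.831% ± 0.158. The part of blood in the vessels in either sum was not tested.

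Markers of pancreas, striated muscle, liver, neurons, pluripotent cells and multiciliated cells were undetected or below 60 in level. None of 4 pancreatic and neuroendocrine entries, miR-375-3p among them, was detected on any array. Of 7 striated muscle entries, miR-1a-3p (49.0 ± 10.4) and miR-133b-3p (20.9 ± 4.10) were detected on all 4 arrays and miR-133a-3p on 3. The muscle-specific miR-206-3p, miR-208a-3p, miR-208b-3p and miR-499-5p were detected on none. miR-122-5p, the dominant miRNA of hepatocytes, measured 28.6 ± 3.51. Of 6 neuronal entries 4 were detected (66.7%), around or under the median level of 49.0: miR-9-5p (57.9 ± 16.3), miR-219a-5p (51.0 ± 1.40), miR-9-3p (36.6 ± 9.81) and miR-128-3p (32.7 ± 1.06). miR-124-3p and miR-137-3p were not. Of 8 pluripotent-cell entries only miR-290a-5p (18.6 ± 3.12) passed. The multiciliated-cell miRNAs miR-34b-5p (53.8 ± 4.10) and miR-34c-5p (23.7 ± 1.27) were detected and miR-449a-5p and miR-449c-5p were not.

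**Figure D3:**
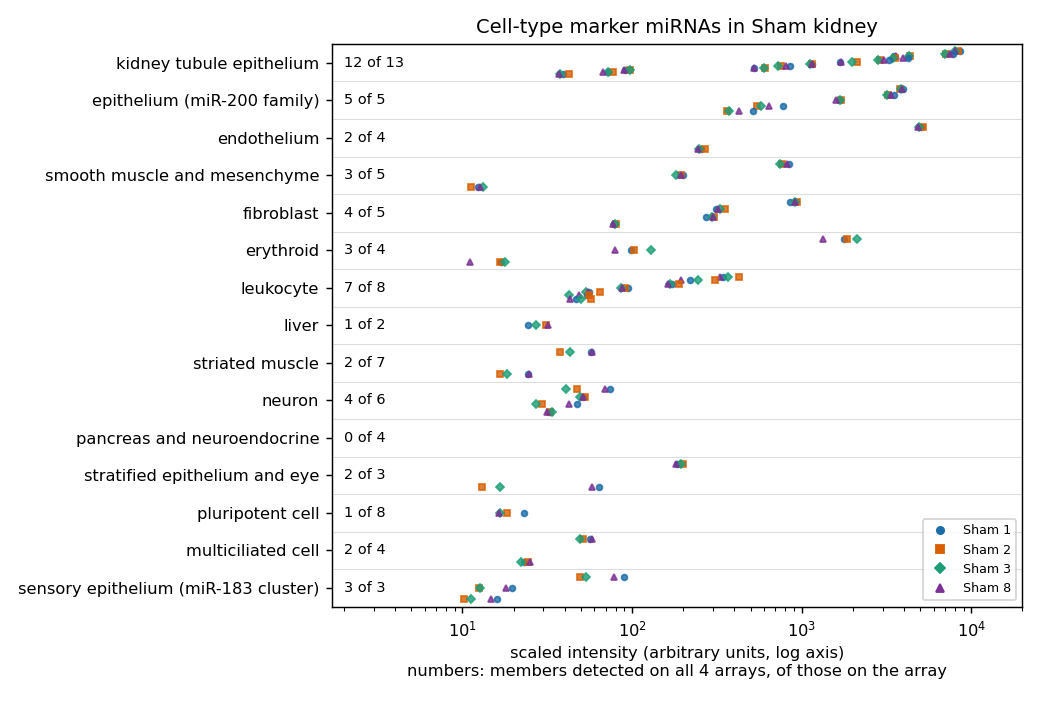
Scaled intensity (log axis) of marker miRNAs detected on all 4 Sham arrays, by list, with a point for each array; the numbers on the left count detected members of those on the array. Tubule epithelium shows 12 of 13 members, several above 1000, while muscle, neuron and pluripotent-cell members stay below 100 and no pancreatic member is drawn.

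The 2 detected markers of stratified epithelium and the 3 of sensory epithelium had a median log2 SD of 0.631 and 0.340, against 0.0918 for the tubule list. The first median averages a variable and a steady miRNA. All miRNAs at or below the median level had a median log2 SD of 0.195, and the part of brightness in this difference was not tested. miR-205-5p, a miRNA of stratified epithelium and urothelium, measured 63.5, 13.0, 16.5 and 57.9 on Sham 1, 2, 3 and 8, a mean of 37.7 ± 26.7. Its log2 SD of 1.19 was the largest of the 431 miRNAs. Its Sham 2 level lay under the lowest signal well above background on that array (14.2), which limits this SD. miR-203-3p of the same list was steady at 190 ± 9.31. The miR-183 cluster, known from sensory epithelia, was detected in full: miR-96-5p measured 89.3, 49.1, 53.8 and 78.5, miR-182-5p 19.7, 12.5, 12.7 and 18.1, and miR-183-5p 16.1, 10.2, 11.2 and 14.7. Like miR-205-5p, all 3 were higher on Sham 1 and Sham 8 than on Sham 2 and Sham 3, with no overlap. On Sham 2, miR-182-5p and miR-183-5p also lay under the lowest signal well above background. miR-183-5p did so on Sham 3 too (12.6 there), so the size of these gaps is uncertain. By the array positions in the deposited files, Sham 1 and Sham 8 were also the outer arrays of the slide row that held the 4 Sham arrays, and the part of array position in these differences was not tested.

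The 2 arms of a hairpin usually differed strongly in brightness. The array held 777 pairs of a 5p and a 3p arm, 640 paired through RefSeq hairpins and 137 by their names. A mature miRNA made from several hairpins enters once for each, with the same level. Both arms were detected on all 4 arrays in 64 pairs by the call per miRNA. Only the 5p arm was detected in 147 pairs and only the 3p arm in 80, with the partner on no array. Neither arm was detected on any array in 416 pairs, and 70 pairs were mixed. Among the 64 pairs, the 5p arm was brighter in 38 and the 3p arm in 26. In 43 of them the brightest probe of both arms was also well above background on all 4 arrays, and folds are given for these. In 19 the dimmer arm was not (in 11 of these on no array), so a fold is a lower bound, taken against the lowest signal well above background on each array or the arm's own signal where that was higher. In the other 2, miR-542 and miR-3058, neither arm was, and no fold is given. Among the 43 pairs the 5p arm was brighter in 23 and the 3p arm in 20, with the same side on all 4 arrays in 41. The median ratio of the brighter to the dimmer arm was 10.2-fold. It was above 10-fold in 22 pairs, 11 in each direction, and within 2-fold in 6.

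**Figure D4:**
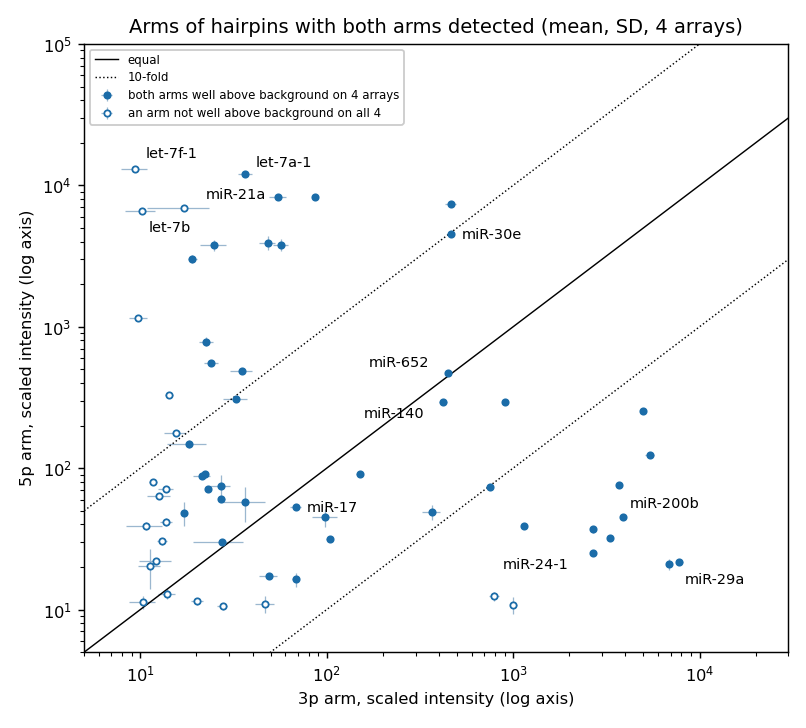
Mean scaled intensity of the 5p arm against the 3p arm (both log axes, bars are SD over 4 Sham arrays) for the 64 hairpins with both arms detected, filled where both arms were well above background on all 4 arrays (43 pairs) and open otherwise, with the line of equal brightness and lines at 10-fold. Among the filled points let-7a-1 lies 330-fold toward 5p and miR-29a 361-fold toward 3p, while miR-652 lies near the line of equal brightness. The brightest let-7a-1-3p probe also matches let-7c-2-3p exactly.

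Of the measured ratios toward 5p, the largest was that of let-7a-1. let-7a-5p was 330-fold brighter than let-7a-1-3p (36.6 ± 3.26), a log2 ratio of 8.37 ± 0.0998 (SD, n = 4), which became 6.96 with the normexp background correction and 10.08 with total signal per miRNA. The offset of 50 in normexp by itself shrinks a ratio with a dim arm. The brightest let-7a-1-3p probe also matches let-7c-2-3p exactly. The brightest let-7a-5p probe is within 1 mismatch of let-7c-5p, let-7d-5p, let-7e-5p and let-7f-5p. Both levels of the let-7a-1 ratio may therefore include products of other hairpins. This ratio toward 5p was the largest measured. It was followed by miR-10b (158-fold), miR-30b (154-fold) and miR-30c-1 (151-fold). Lower bounds toward 5p were at least 1022-fold for let-7f-1, 516-fold for let-7b and 90.2-fold for let-7e, whose 3p arms were well above background on no array. For miR-21a, whose 3p arm was so on 2 arrays, the bound was at least 408-fold. The largest measured ratios toward 3p were those of miR-29. miR-29a-3p was 361-fold brighter than miR-29a-5p (21.6 ± 0.621), a log2 ratio of -8.50 ± 0.0878 that became -6.57 with normexp and -10.14 with total signal, and miR-29b-3p was 330-fold brighter than miR-29b-1-5p (20.9 ± 1.98). The 3p arm was also ahead in miR-24-1 (106-fold), miR-200a (103-fold), miR-200b (85.4-fold) and miR-24-2 (72.7-fold). The bounds were at least 77.9-fold for miR-101a, whose 5p arm was well above background on no array, and 59.4-fold for miR-143, whose 5p arm was so on 1 array.

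Hairpins of near-equal arms were few. miR-652-5p (472 ± 21.3) and miR-652-3p (450 ± 16.1) differed by 1.05-fold. In miR-149 the ratio was 1.13-fold, at levels below 40. In miR-17 the 3p arm (68.0 ± 4.37) was 1.27-fold brighter than the 5p arm (53.4 ± 2.09), and in miR-140 the 3p arm (420 ± 19.8) was 1.43-fold brighter than the 5p arm (294 ± 16.0). Probes of the same arm differed by more than this, by 3.37-fold for miR-17-5p, 2.56-fold for miR-17-3p, 3.16-fold for miR-652-3p and 2.42-fold for miR-140-3p, so these ratios do not order the arms. The brightest miR-17-5p probe also matches miR-106a-5p exactly and miR-20a-5p and miR-20b-5p within 1 mismatch. The brightest arms whose partner was detected on no array give lower bounds only, taken in the same way. let-7f-5p was at least 1022-fold brighter than let-7f-2-3p, and let-7c-5p at least 820-fold brighter than let-7c-1-3p. miR-29b-3p was at least 537-fold brighter than miR-29b-2-5p, miR-26a-5p at least 535-fold brighter than either of its 3p arms, and let-7g-5p at least 445-fold brighter than let-7g-3p.

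Hairpin sequences show where the arms lie. They are from RefSeq (GRCm38.p6), and capitals mark both mature arms, the 5p arm first. Mir21a, at chr11:86584067-86584158 on the minus strand within the span of Vmp1, is shown for a hairpin read almost wholly as 5p. Mir30e, at chr4:120772606-120772697 on the minus strand within the span of Nfyc, is shown for one in which both arms were bright, miR-30e-5p at 4552 ± 95.8 and miR-30e-3p at 463 ± 21.2, a ratio of 9.84. The brightest miR-30e-5p and miR-30e-3p probes are within 1 mismatch of miR-30a-5p and miR-30a-3p, so these levels may include products of Mir30a. Mir17, at chr14:115043671-115043754 on the plus strand, is shown for a hairpin whose arms were close in brightness.
Mir21a: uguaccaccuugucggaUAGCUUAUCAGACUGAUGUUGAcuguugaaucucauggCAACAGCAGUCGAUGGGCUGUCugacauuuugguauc
Mir30e: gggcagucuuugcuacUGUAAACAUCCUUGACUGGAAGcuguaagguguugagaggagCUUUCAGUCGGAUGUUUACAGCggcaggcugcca
Mir17: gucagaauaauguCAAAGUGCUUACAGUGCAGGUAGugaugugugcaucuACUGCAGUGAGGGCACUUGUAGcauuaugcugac

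The brighter arms of the 64 pairs, near-equal ones included, differed from the dimmer ones in their first base. Of the 49 brighter arms with a RefSeq sequence, 31 (63.3%) began with U, against 9 of 51 dimmer arms (17.6%). C opened 7 brighter arms (14.3%) and 25 dimmer arms (49.0%). A first-base U is a known preference of Argonaute loading. Among all 368 detected miRNAs with a sequence U opened 43.8%, among the 100 brightest outside the fragment list 58.0%, and among the 1161 detected on no array 39.8%. At the last base, where the label is joined, A closed 32.7% of brighter and 27.5% of dimmer arms, and C closed 10.2% and 33.3%. The probes of brighter arms had a median GC content of 47.4% and a median length of 19.0 bases, against 50% and 17.0 bases for dimmer arms, and the part of these features in the arm ratios was not tested.

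Members of single transcripts were not equally bright either. In the miR-17-92 cluster 7 of 12 arms were detected on all 4 arrays, led by miR-19b-3p (1413 ± 114), miR-20a-5p (634 ± 24.1), miR-92a-3p (377 ± 19.4) and miR-19a-3p (168 ± 11.2), and the brightest was 42.8-fold above the dimmest. miR-19b-3p and miR-92a-3p are also made by a second cluster. In the miR-106b-25 cluster, within the span of Mcm7, miR-106b-5p (464 ± 17.4), miR-93-5p (404 ± 17.6) and miR-25-3p (292 ± 5.32) lay within 1.59-fold. One cluster gave miR-23b-3p (3775 ± 69.8), miR-27b-3p (1912 ± 39.95) and miR-24-3p (2685 ± 74.97). Its relative gave miR-23a-3p (3586 ± 263) and miR-27a-3p (1681 ± 145) and shares miR-24-3p. By the brightest probes the miR-23 member was brightest and the miR-27 member dimmest in both. By the dimmer probes miR-24-3p (2211) was above miR-23b-3p (1642) and miR-23a-3p (1509), with miR-27b-3p (586) and miR-27a-3p (864) still lowest. The brightest miR-27a-3p and miR-27b-3p probes are each within 1 mismatch of the other miRNA.

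Large clusters differed in how many of their members were detected, beside 22.9% of all miRNAs. Of 40 entries of the imprinted Dlk1-Dio3 cluster on the array, which is active in embryo, placenta and brain, 3 were detected on all 4 arrays (7.50%) and 33 on none. miR-494-3p stood far above the others and varied, with 1778, 1595, 1257 and 910 on Sham 1, 2, 3 and 8, while miR-487b-3p (36.4 ± 2.76) and miR-370-3p (19.4 ± 3.41) were dim. By RefSeq position the region also holds the detected miR-3072-5p (102 ± 10.5) and miR-3070-2-3p (29.8 ± 10.9), which are not on that list. Of 19 entries of the rodent Sfmbt2 intron cluster, 7 were detected (36.8%), miR-466i-5p (307 ± 14.95) above miR-467f (58.0 ± 7.47), miR-466f-3p (38.4 ± 4.84) and miR-466i-3p (32.5 ± 4.71). In the intron cluster of Clcn5, a chloride transporter gene of the proximal tubule, 6 of 10 were detected (60%), at 187 ± 6.62 for miR-500-3p, 104 ± 4.43 for miR-362-3p, 60.4 ± 2.57 for miR-532-5p and 42.3 ± 7.44 for miR-188-5p.

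Detection was less frequent among entries with a high miRBase number, which follows the order in which miRNAs were described. Of the 286 entries numbered below 200, let-7 included, 147 were detected (51.4%). The share was 23.3% of the 330 entries from 200 to below 500, 21.7% of 203 from 500 to below 1000 and 17.5% of 126 from 1000 to below 3000. It was 18.9% of 222 from 3000 to below 6000 and 13.9% of 714 from 6000 upward. Detected entries of the first range had a median level of 168, and those of the last range 27.6. Probes of the detected entries of the last range were also richer in GC, with a median of 64.3% against 47.4% for the detected entries of the first range.

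The 4 arrays agreed closely for bright miRNAs. The median SD of a miRNA over the arrays was 0.131 on the log2 scale, 0.0757 for miRNAs above the median level and 0.195 for those at or below it. The median coefficient of variation of a level over arrays was 9.06%. Between single spots of one probe on one array it was 8.73%. A level averages the spots of a probe (median 15 per probe), so these 2 values do not measure the same kind of spread. The correlation of log2 levels over the 431 miRNAs lay between 0.987 (Sham 1 and Sham 2) and 0.998 (Sham 2 and Sham 3), a description across miRNAs that share probes and scaling. Sham 1 stood apart: it was the highest array for 225 of the 431 miRNAs, and the first principal component, with 59.1% of the variance, separated it from the others. Without Sham 1 the median SD was 0.0885, and with the normexp background correction 0.0736. That correction adds an offset of 50, which by itself shrinks the log2 SD of dim miRNAs, so the lower value does not show better agreement. miRNAs with a probe GC content above 60% had a median SD of 0.189 against 0.0942 for the rest, and their median deviation on Sham 1 was 0.17 against 0.04. The part of GC content in the spread was not tested.

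Among the 10 least variable miRNAs above the median level were the epithelial miR-200b-3p, the collagen-targeting miR-29b-3p, miR-193a-3p (1150, 1153, 1125 and 1146), miR-130a-3p (1991 ± 27.1), miR-345-5p (203 ± 2.98), miR-214-3p, miR-25-3p, miR-23b-3p, miR-378a-3p and miR-6965-5p (64.5 ± 0.716), with log2 SDs from 0.0161 to 0.0277. The 10 most variable included miR-210-3p, the miRNA induced by hypoxia, at 88.3, 47.5, 46.6 and 73.8, higher on Sham 1 and Sham 8 with no overlap. miR-5128 (157 ± 65.4), miR-3960 (632 ± 245), miR-1224-5p (1376 ± 434) and miR-3470a (87.4 ± 27.1) are on the fragment list. The brightest miR-5128 probe is within 1 mismatch of miR-3473b, which was brighter at 4013 ± 1059, and of miR-3473e, so the miR-5128 value may include them. miR-3102-5p (155 ± 54.0), miR-7005-5p (138 ± 44.5), miR-5622-3p (122 ± 36.7) and miR-3473e (59.8 ± 17.6) were all highest on Sham 1. miR-7080-5p was the exception in direction, at 32.5 on Sham 1 and 58.5 to 59.8 on the others.

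**Figure D5:**
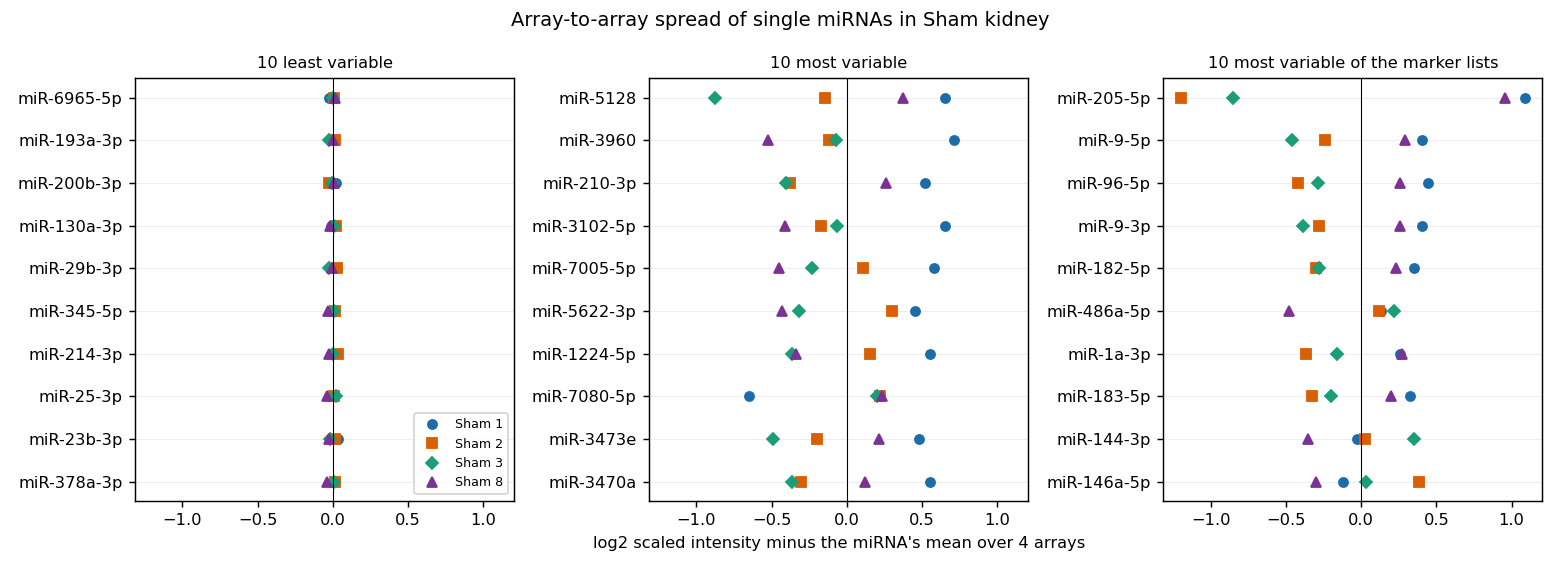
Deviation of each Sham array from the miRNA's mean over 4 arrays (log2 scaled intensity) for the 10 least and 10 most variable miRNAs above the median level and for the 10 most variable miRNAs of the marker lists. The left points coincide, most middle points of Sham 1 lie to the right, and miR-205-5p shows the widest separation, with Sham 1 and Sham 8 high and Sham 2 and Sham 3 low.

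One of the 25 brightest miRNAs also belonged to the variable ones. miR-3473b measured 4824, 2931, 3283 and 5015 on Sham 1, 2, 3 and 8, a mean of 4013 ± 1059, and its relative miR-3473a 888, 525, 568 and 855. The brightest miR-3473b probe matches miR-3473a exactly, so the miR-3473b value may include miR-3473a. The brightest miR-3473a probe matches no other RefSeq mature sequence within 1 mismatch. Both were high on Sham 1 and Sham 8 and low on Sham 2 and Sham 3, without overlap.

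Different probes of a miRNA agreed within limits. For 270 miRNAs with at least 2 probes above background, the brightest and dimmest probe differed by a median of 1.55-fold, 187 stayed within 2-fold and 15 exceeded 4-fold. The dimmer probe was the shorter one in 240 of them. The largest disagreements were 19.7-fold for miR-3968, 8.31-fold for miR-3473a, 8.16-fold for miR-6412, 7.59-fold for miR-5100, 5.56-fold for miR-100-5p and 5.12-fold for miR-378c, and in each the dimmer probe was 1 base shorter. Ranking by the software's total signal per miRNA, which sums over its probes, kept 24 of the 25 brightest and 99 of the 100 brightest. Within the 100 brightest, the largest rank changes were for miR-3473a (65 to 77), miR-378b (52 to 63), miR-8117 (73 to 83), miR-6368 (82 to 73), miR-3473g (78 to 70) and miR-5126 (59 to 51).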

How the data were processed

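The authors deposited one scanner output per array, written by Agilent Feature Extraction 10.7.3.1 per the submitters' processing notes; its values are linear intensities, background-subtracted and detrended within the array per the file headers, and not normalized between arrays. The labels give kidney total RNA labelled with pCp-Cy3. Only the 4 Sham arrays were used, and their number limits the precision. Flagged outlier spots (2.64% to 2.92% per array) were left out, spots of a probe were averaged, and each array was scaled to the mean 75th percentile (364 ± 20.7) of the 650 probes with over 50% of spots well above background on all 4 arrays. The brightest probe stood for a miRNA, and detection was the software's call per miRNA. With one group no test was made. Summaries used Python 3.11.15 with pandas 2.3.3, and normexp used limma 3.58.1 with an offset of 50; the functions were tested on simulated data.

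The members, the lists and the rule for named miRNAs were chosen with earlier results of these data known. Named were the 25 brightest miRNAs, the 4 brightest of each list, the hairpins with extreme, near-equal or one-sided arms, the most and least variable miRNAs, the members of the largest seed families, and those with discordant probes or ranks. Alternatives covered the detection call, the background correction, the probe summary, the denominator, the scaling and each array left out. Sequences and gene spans are from RefSeq (GRCm38.p6); miRNAs without an entry there are named only.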

Additional observations from a re-analysis of the deposited data

Results flagged for a closer look

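Among 160 named miRNAs detected on all 4 arrays, 8 had a single array far from the others by the criterion of Dixon at 95%, the 1 in 20 that chance gives. On Sham 1, let-7e-5p was high at 1208 (others 1141 to 1148), miR-466i-5p at 329 (298 to 301), miR-466i-3p at 39.5 (29.4 to 30.8) and miR-29b-1-5p at 23.9 (19.6 to 20.1), while miR-7080-5p was low at 32.5 (58.5 to 59.8). On Sham 8, miR-378a-3p was low at 732 (759 to 762) and miR-345-5p at 198 (204 to 205). On Sham 3, miR-3473g was high at 495 (464 to 468). Apart from miR-7080-5p, miR-466i-3p and miR-29b-1-5p, these gaps were small beside the level of the miRNA.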

How the results depend on the processing

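No paired analysis was possible because the results describe one group and come from no test. The share in the 10 brightest (71.5%) became 70.1% with total signal per miRNA, 68.7% with normexp and 70.0% as mean over all probes, and the share in the 50 brightest (92.4%) became 92.0%, 89.1% and 92.0%. The share of the 8 largest seed groups (78.7% of all signal, with 61.8% in 4 single entries, miR-6366, miR-3963, miR-5100 and miR-3968) became 77.6%, 75.7% and 77.6%. Leaving out the listed fragments and entries with no RefSeq sequence gave 40.7%, 86.5% and 48.6% for these 3 shares and 14.1% for the tubule list (5.06% of all detected); leaving out the listed fragments only, an alternative chosen after seeing the data, gave 38.1%, 83.8%, 45.6% and 13.6%. Leaving out one array at a time gave 71.1% to 71.9%, 92.3% to 92.5%, 78.4% to 79.0% and 4.99% to 5.13%. The median log2 SD (0.131) became 0.0736 with normexp, whose offset of 50 shrinks it for dim miRNAs. It became 0.0885 to 0.125 without one array, lowest without Sham 1. The detected count was 350 by spot calls on the brightest probe, 471 on 3 arrays or more, 523 on 1 or more, and 433 to 453 without one array. The 5p arm was brighter in 37 or 38 of 64 pairs under all alternatives run, and of the 22 named arm ratios one turned: miR-3058 had a log2 ratio of -0.81 with total signal and -0.24 as mean over all probes (both arms well above background on no array).

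Levels within a few units of the lowest signal well above background (11.6 to 14.2 per array) are limited by the background, and a miRNA not detected there may still be present. Ranks below the top 100 moved by up to 127 places with total signal.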
